A study of Mus musculus with 9 samples.

Results

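The genes described here encode enzymes and subunits of the 2 best known systems that keep mammalian genes silent, DNA methylation and the Polycomb complexes. They were chosen by name: Dnmt1, Dnmt3a, Dnmt3b, Ezh1, Ezh2, Eed, Bmi1, Phc1 and Rnf2, 9 genes in all. Of these, 8 had a probe set whose platform annotation gave 1 gene symbol, and Dnmt3b was not analysed here. The 8 genes had 12 probe sets of the 12422 tested, with 2 each for Dnmt1 and Dnmt3a, 3 for Rnf2 and 1 for each of the other 5 genes.

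The cells were F9, a mouse embryonal carcinoma line grown from a teratocarcinoma that differentiates towards endoderm when given retinoic acid. Total RNA was taken after 24 h from cells given retinoic acid (RA) at 0.5 µM, from cells given trichostatin A (TSA), an inhibitor of histone deacetylases, at 0.07 µM, and from cells given the ethanol vehicle. Each group had 3 Affymetrix arrays, and all groups were the same line with no genetic change given in the labels. Whether the 3 arrays of a group were hybridised with RNA of separate cultures is not stated in the labels. Each p-value therefore reflects array-to-array spread that may be technical alone.

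DNA methyltransferases add a methyl group to cytosine in CG dinucleotides. Dnmt1 copies methylation to the new strand at replication, while Dnmt3a and Dnmt3b write it on unmethylated DNA, and embryonal carcinoma and embryonic stem cells are known for strong de novo methylation. Polycomb repressive complex 2 (PRC2) methylates histone H3 at K27 through Ezh2 or its relative Ezh1, with Eed as a core subunit that binds the mark and stimulates the enzyme. Polycomb repressive complex 1 (PRC1) ubiquitinates histone H2A through Rnf2 (also called Ring1b), with Bmi1 as a partner of the ring finger pair and Phc1 as a polyhomeotic subunit that links complexes together. In embryonic stem cells, Polycomb complexes sit on CG-rich promoters of developmental genes, such as the Hox genes.

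The upstream sequences of Bmi1, Ezh1 and Phc1 are shown because these genes had the smallest p-values of a moderated F test over the 3 groups. Their CG content is marked because CG is the dinucleotide that DNA methyltransferases modify, and because CG-rich promoters, which are mostly kept unmethylated, are where Polycomb complexes are often found. Each runs 5′ to 3′ on the gene's own strand over the 250 bases before the RefSeq start (build GRCm38.p6), with every CG dinucleotide in capitals. Bmi1 is chr2:18676768-18677017, plus strand, Ezh1 is chr11:101226464-101226713, minus strand, and Phc1 is chr6:122340228-122340477, minus strand.
Bmi1: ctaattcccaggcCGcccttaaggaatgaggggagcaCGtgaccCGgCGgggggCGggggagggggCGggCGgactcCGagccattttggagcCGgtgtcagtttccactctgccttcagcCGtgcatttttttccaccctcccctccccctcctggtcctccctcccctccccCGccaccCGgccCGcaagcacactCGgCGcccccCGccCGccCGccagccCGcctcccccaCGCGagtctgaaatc
Ezh1: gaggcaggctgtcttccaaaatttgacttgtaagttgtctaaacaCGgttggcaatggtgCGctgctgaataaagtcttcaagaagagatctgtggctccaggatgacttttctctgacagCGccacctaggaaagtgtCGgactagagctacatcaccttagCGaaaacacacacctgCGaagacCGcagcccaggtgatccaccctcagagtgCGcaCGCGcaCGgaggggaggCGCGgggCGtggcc
Phc1: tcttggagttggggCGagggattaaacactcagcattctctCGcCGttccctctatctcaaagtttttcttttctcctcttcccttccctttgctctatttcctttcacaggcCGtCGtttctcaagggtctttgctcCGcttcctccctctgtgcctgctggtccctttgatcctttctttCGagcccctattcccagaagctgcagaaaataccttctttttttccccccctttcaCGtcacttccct
The Bmi1 window held 21 CG dinucleotides, the Ezh1 window 14 and the Phc1 window 8, against a median of 6 over all 32851 RefSeq windows of the same length. The letters GGGCGG, a GC box, occurred 6 times in the Bmi1 window on either strand and in neither of the others, while 32.7% of all windows held them. The letters AGGTCA, the half-site that retinoic acid receptors bind, were in none of these 3 windows on either strand, and 14% of all windows held them. A match or its lack describes only these letters in this window.

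Every value below is a ratio to the mean of the 3 vehicle arrays for the same probe set, as deposited, so the vehicle arrays average 1 in each. The ratios carry no brightness, so whether a gene was expressed well above background, and whether F9 markers were present at all, could not be read from them, and no gene's level was set against another's. Changes are log2 changes of ratio + 0.05 from limma over all 9 arrays, with Benjamini-Hochberg adjustment over all 12422 probe sets and a threshold of 0.05 on the adjusted p. In RNA from whole cultures, fewer cells of a type and less RNA per cell cannot be told apart.

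Array medians over all probe sets ran from 0.821 to 1.02, and the median probe set was lower by 0.12 in RA and by 0.17 in TSA on the log2 scale. Signal of the 18S rRNA control probe sets was highest on vehicle replicate 3 (2.4 times the vehicle mean), RA replicate 3 (0.961) and vehicle replicate 1 (0.538), and at most 0.073 on the others. The hybridisation control probe sets had median ratios of 1.05, 0.895 and 1.05 on the vehicle arrays. On the RA arrays they had 0.616, 0.412 and 1.1, and on the TSA arrays 0.557, 0.633 and 0.717. The part of this difference in the comparisons with vehicle was not tested. Vehicle replicate 3 was the lowest of the vehicle arrays for 8 of the 12 member probe sets and the highest for 3 others, as it was lowest for 42.3% and highest for 39% of all probe sets. The part of this array in the results was not tested beyond leaving it out.

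No member probe set passed the threshold in any comparison. In RA against vehicle 0 of 12 passed by limma, where 1.36% of all probe sets did (0.934% higher and 0.427% lower), and 3 of 12 had an unadjusted p under 0.05, against 12.7% of all. In TSA against vehicle 0 of 12 passed, against 3.48% of all (2.21% higher and 1.27% lower), with 3 of 12 under 0.05 unadjusted, against 19.6%. In RA against TSA 0 of 12 passed, against 3.91% of all (1.70% higher and 2.21% lower), with 3 of 12 under 0.05 unadjusted, against 17.1%. Averaged over the probe sets of each gene, limma passed 0 of 8 member genes in each comparison, of 8251 genes measured. Over all these genes, 1.82% passed in RA (1.19% higher and 0.630% lower), 4.50% in TSA (2.71% higher and 1.78% lower) and 4.99% in RA against TSA (2.21% higher and 2.79% lower). RA and TSA share the vehicle arrays, so values that look alike in both are not independent of each other.

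**Figure D1:**
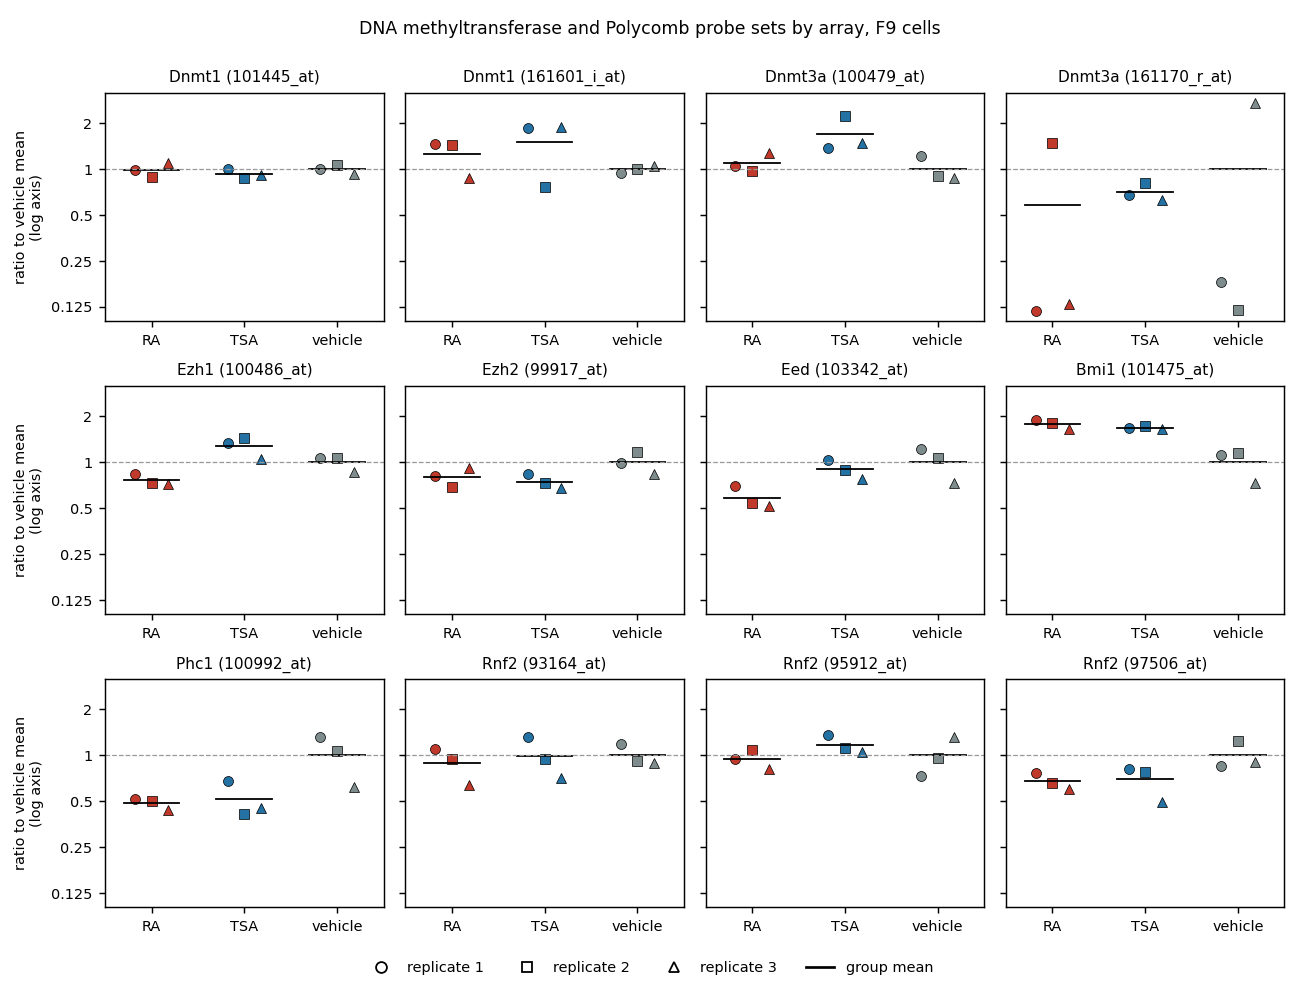
Ratio to the vehicle mean (log axis) of each of the 12 member probe sets on each array, with RA, TSA and vehicle from left to right, a marker shape for each replicate number and a bar at each group mean. The Bmi1 values of all 6 treated arrays, 1.64 to 1.9, lie above the vehicle arrays, and Dnmt3a probe set 161170_r_at spans 0.119 to 2.7 within the vehicle group alone.

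The Dnmt1 probe set 101445_at varied little within and between groups. It read 0.981, 0.886 and 1.1 on the RA arrays and 1.01, 0.876 and 0.92 on the TSA arrays, against 1.01, 1.06 and 0.935 on the vehicle arrays. All 3 groups overlapped, and the vehicle spread of this probe set was smaller than that of all but 4.64% of probe sets. The log2 change was -0.02 in RA (95% interval -0.41 to 0.38) and -0.09 in TSA (-0.49 to 0.30), with limma adjusted p of 0.984 and 0.811. For this probe set, the intervals span moderate changes either way and do not reach a doubling or a halving of the ratio. They rest on array spread that may be technical alone, so they set no bound on changes between cultures. The intervals of the second Dnmt1 probe set, given next, do reach a doubling.

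The second Dnmt1 probe set, 161601_i_at, varied much more under treatment. It read 1.47, 1.45 and 0.869 in RA and 1.87, 0.768 and 1.89 in TSA, against 0.95, 1 and 1.05 in vehicle. RA replicate 3 and TSA replicate 2 lay below all vehicle arrays while the other 4 treated arrays lay above them. Its log2 changes of 0.29 (-0.54 to 1.11) in RA and 0.47 (-0.36 to 1.29) in TSA did not pass, with limma adjusted p of 0.804 and 0.527. The suffixes _i and _r mark Affymetrix probe sets built with fewer or less strictly selected probes.

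Dnmt3a, a de novo methyltransferase with several promoters and isoforms in the mouse, read 1.05, 0.97 and 1.27 in RA and 1.37, 2.23 and 1.48 in TSA, against 1.22, 0.906 and 0.873 in vehicle, by probe set 100479_at. The TSA arrays lay above every vehicle and every RA array, and the RA and vehicle arrays overlapped. The TSA arrays averaged 1.69 ± 0.471 times the vehicle mean (SD, n = 3), a log2 change of 0.71 (0.15 to 1.28) that did not pass (limma adjusted p = 0.161). In RA the log2 change was 0.13 (-0.43 to 0.70, adjusted p = 0.883), and RA against TSA gave -0.58 (-1.14 to -0.02, adjusted p = 0.277) by the same test.

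The other Dnmt3a probe set, 161170_r_at, gave no usable measure of the gene. It read 0.118, 1.48 and 0.132 in RA and 0.681, 0.809 and 0.63 in TSA, against 0.182, 0.119 and 2.7 in vehicle. RA replicate 2 and vehicle replicate 3 stood far above the other 2 arrays of their groups, and its vehicle spread was at the 99.9th percentile of all probe sets. The TSA mean of ratios, 0.707, was below the vehicle mean of 1, whereas the log2 change was 0.66 (-1.94 to 3.26), so the sign depended on the scale. In RA the log2 change was -0.40 (-3.00 to 2.20), and without vehicle replicate 3 it turned to 0.86.

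The PRC2 genes Ezh1, Ezh2 and Eed each had a negative log2 change in RA, none past the threshold, and did not go one way in TSA. Ezh1, the methyltransferase that prevails in cells that no longer divide, read 0.841, 0.737 and 0.721 in RA and 1.34, 1.44 and 1.04 in TSA, against 1.07, 1.07 and 0.859 in vehicle. The RA arrays lay below all vehicle and all TSA arrays, and the TSA and vehicle arrays overlapped. RA against TSA gave a log2 change of -0.69 (-1.14 to -0.24), the smallest adjusted p of the members in that comparison, 0.106 by limma, which misses the threshold. Against vehicle, Ezh1 had -0.36 (-0.81 to 0.09, adjusted p = 0.502) in RA and 0.33 (-0.12 to 0.78, adjusted p = 0.403) in TSA by limma.

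Ezh2, the main H3K27 methyltransferase of dividing cells, read 0.813, 0.684 and 0.918 in RA and 0.834, 0.727 and 0.676 in TSA, against 0.995, 1.16 and 0.841 in vehicle. The TSA arrays lay below every vehicle array, though the highest of them, 0.834, was close to the lowest vehicle array, 0.841, and the RA arrays overlapped the vehicle arrays. The log2 change was -0.29 (-0.75 to 0.17, adjusted p = 0.61) in RA and -0.39 (-0.85 to 0.07, adjusted p = 0.328) in TSA by limma.

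Eed, which Ezh1 and Ezh2 both need for activity, read 0.696, 0.54 and 0.519 in RA and 1.04, 0.888 and 0.777 in TSA, against 1.21, 1.06 and 0.727 in vehicle. All RA arrays were below all vehicle and TSA arrays, with vehicle replicate 3 nearest, and the TSA and vehicle arrays overlapped. The RA arrays averaged 0.585 ± 0.097 times the vehicle mean (SD, n = 3), a log2 change of -0.71 (-1.25 to -0.16) with a limma adjusted p of 0.251. Without vehicle replicate 3 it was -0.91, with a limma adjusted p of 0.0931, and without vehicle replicate 1 it was -0.56, with 0.414. In TSA the change was -0.12 (-0.67 to 0.42), and RA against TSA gave -0.58 (-1.13 to -0.04), with limma adjusted p of 0.819 and 0.262.

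**Figure D2:**
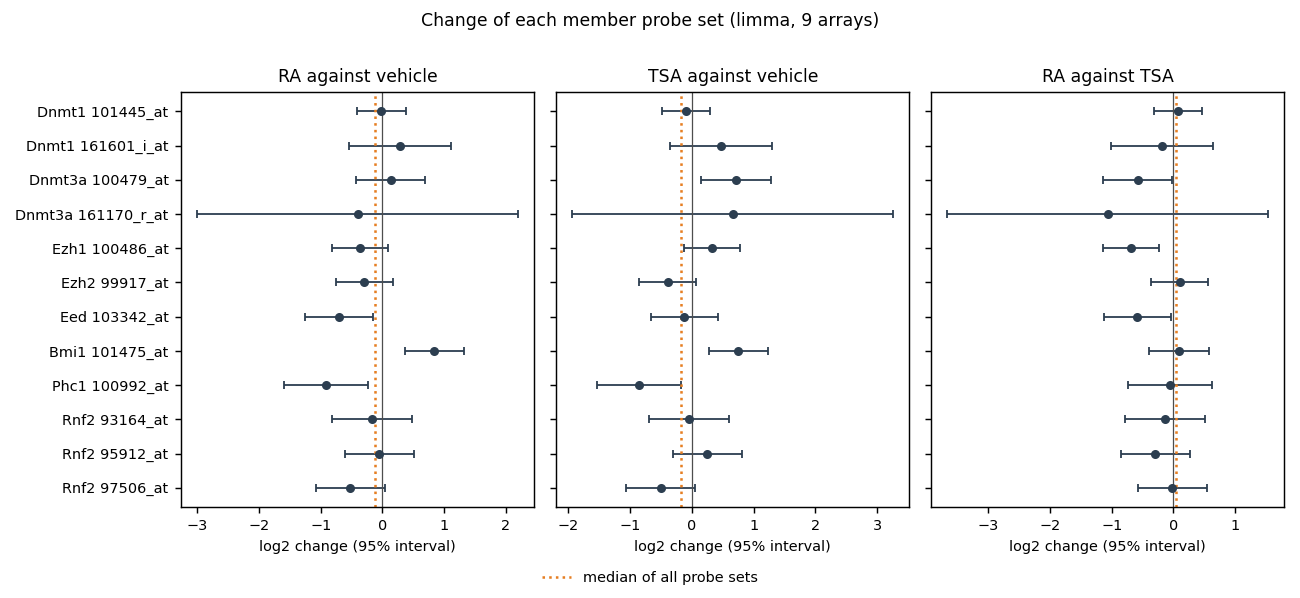
Log2 change of each member probe set with its 95% interval (limma, all 9 arrays) in RA against vehicle, TSA against vehicle and RA against TSA, with a solid line at 0 and a dotted line at the median of all 12422 probe sets. Intervals of Eed, Bmi1 and Phc1 in RA, of Dnmt3a 100479_at, Bmi1 and Phc1 in TSA, and of Dnmt3a 100479_at, Ezh1 and Eed in RA against TSA exclude 0 before adjustment over all probe sets.

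The PRC1 genes held the highest and the lowest of the more precisely measured changes against vehicle, Bmi1 and Phc1. Bmi1, first found as an oncogene that cooperates with Myc and known as a repressor of the Cdkn2a locus, read 1.9, 1.82 and 1.66 in RA and 1.69, 1.72 and 1.64 in TSA, against 1.12, 1.15 and 0.729 in vehicle. Every treated array lay above every vehicle array, and the RA and TSA arrays overlapped. The means were 1.79 ± 0.121 times the vehicle mean in RA and 1.68 ± 0.039 in TSA (SD, n = 3 each). The log2 changes were 0.84 (0.36 to 1.32) in RA and 0.75 (0.27 to 1.23) in TSA, the smallest p-values of the members in each, 0.00357 and 0.00666 unadjusted and 0.12 and 0.0959 adjusted (limma). After centring each array on its median, the TSA change was 0.95 and passed, with a limma adjusted p of 0.0457. Without vehicle replicate 3 the changes were 0.64 in RA and 0.55 in TSA, with limma adjusted p of 0.116 and 0.105. Over 19 other settings the limma adjusted p in TSA reached 0.373. RA against TSA gave 0.09 (-0.39 to 0.57, limma adjusted p = 0.894).

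Phc1, a polyhomeotic subunit known to be abundant in mouse embryonic stem cells, read 0.516, 0.503 and 0.437 in RA and 0.684, 0.413 and 0.451 in TSA, against 1.32, 1.06 and 0.623 in vehicle. The RA arrays lay below every vehicle array. In TSA, replicate 1 lay above vehicle replicate 3 and the other 2 arrays lay below all vehicle arrays. The RA mean was 0.485 ± 0.042 and the TSA mean 0.516 ± 0.147 times the vehicle mean (SD, n = 3 each). The log2 changes were -0.91 (-1.59 to -0.24) and -0.86 (-1.54 to -0.18), with limma adjusted p of 0.233 and 0.161. Without vehicle replicate 3 they were -1.21 and -1.15, with limma adjusted p of 0.0667 and 0.0503. Without vehicle replicate 1 they were -0.69 and -0.64, with limma adjusted p of 0.403 and 0.29.

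Rnf2, the catalytic subunit of PRC1, had 3 probe sets, of which only 97506_at had treated arrays apart from the vehicle arrays. The intervals of the 3 overlapped in each comparison, and a difference between the probe sets was not tested. Probe set 97506_at read 0.765, 0.66 and 0.602 in RA and 0.815, 0.774 and 0.498 in TSA, against 0.857, 1.24 and 0.907 in vehicle. Both treated groups lay below the vehicle arrays, with log2 changes of -0.52 (-1.08 to 0.04) in RA and -0.50 (-1.06 to 0.05) in TSA and limma adjusted p of 0.428 and 0.3. Probe set 93164_at read 1.1, 0.941 and 0.642 in RA and 1.31, 0.947 and 0.712 in TSA, against 1.19, 0.921 and 0.886 in vehicle, and 95912_at read 0.942, 1.09 and 0.811 in RA and 1.35, 1.12 and 1.05 in TSA, against 0.73, 0.959 and 1.31 in vehicle. Their groups overlapped, with log2 changes between -0.17 and 0.25 against vehicle and limma adjusted p of 0.628 to 0.966.

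Counted over the 12 probe sets, 5 had RA arrays that did not overlap the vehicle arrays, 1 higher and 4 lower, where 17.0% of all probe sets did not overlap, 5.93% higher and 11.0% lower. For TSA 4 did not overlap, 2 higher and 2 lower, against 26.3% of all probe sets, 9.26% higher and 17.1% lower. For RA against TSA 3 did not overlap, each lower in RA, against 27.3% of all probe sets, 13.8% higher and 13.5% lower (each a share of all probe sets). The median log2 change of the 12 was -0.23 in RA, 0.10 in TSA and -0.16 in RA against TSA, beside -0.12, -0.17 and 0.05 over all probe sets. The 8 genes thus held members on both sides of the general shift in each comparison.

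Quotients of 2 members on the same array do not depend on how that array was scaled. The pairs were chosen after the values were seen, so they are given as a description with no test. The quotient of the Bmi1 ratio over the Phc1 ratio was 3.68, 3.61 and 3.8 in RA and 2.47, 4.16 and 3.64 in TSA, against 0.854, 1.08 and 1.17 in vehicle. Every treated array was above every vehicle array, and the RA arrays were close together. Of the 2 PRC2 methyltransferases, the quotient of Ezh1 over Ezh2 was 1.03, 1.08 and 0.785 in RA and 1.61, 1.98 and 1.54 in TSA, against 1.07, 0.922 and 1.02 in vehicle. The TSA arrays stood above all others, and the RA and vehicle arrays overlapped. The quotient of Ezh1 over Eed was 1.21, 1.37 and 1.39 in RA and 1.3, 1.62 and 1.34 in TSA, against 0.88, 1.01 and 1.18 in vehicle, so that every treated array was above every vehicle array by a narrow margin.

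**Figure D3:**
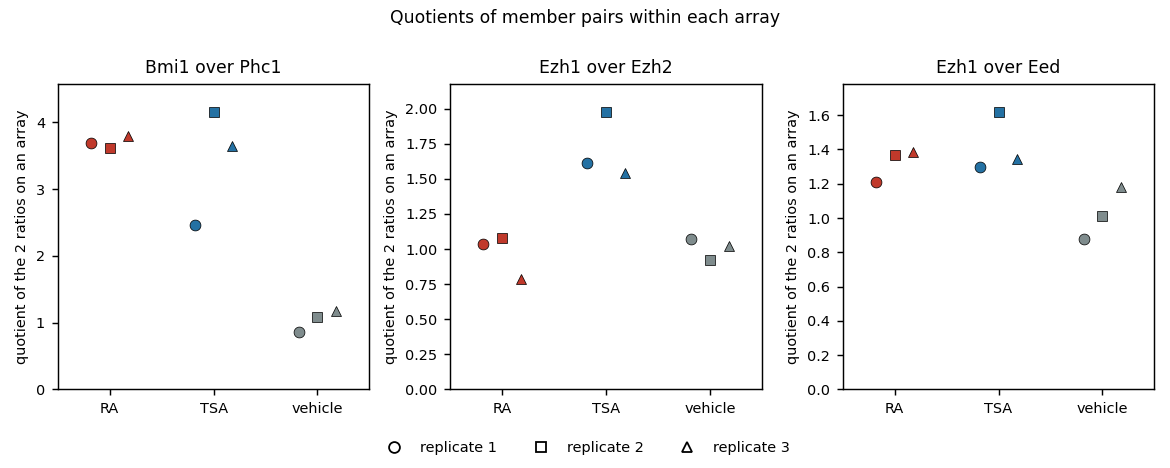
Quotient of the ratios of 2 member genes on each array (linear axis from 0), for Bmi1 over Phc1, Ezh1 over Ezh2 and Ezh1 over Eed, with RA, TSA and vehicle from left to right and a marker shape for each replicate number. Bmi1 over Phc1 is 2.47 to 4.16 on the treated arrays and 0.854 to 1.17 on the vehicle arrays, and Ezh1 over Ezh2 is highest on the 3 TSA arrays.

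For Bmi1, Ezh1 and Phc1, the genes with the most similar profile were found by Pearson's r of log2 values over the 9 arrays, which share vehicle scaling and array effects. Nearest to Bmi1 were Tmed3 (r = 0.974), Spock2 (0.962) and Arap3 (0.957), with mean ratios of 2.25, 3.15 and 3.58 in RA and 2.12, 2.12 and 3.76 in TSA. Nearest to Ezh1 were Ctnnal1 (r = 0.98), Ncoa4 (0.968) and Phtf2 (0.965), with mean ratios of 0.746, 0.714 and 0.708 in RA and 1.25, 1.67 and 1.44 in TSA. Nearest to Phc1 were Thumpd1 (r = 0.99), Gm15987 (0.98) and Wdr43 (0.969), with mean ratios of 0.712, 0.349 and 0.723 in RA and 0.723, 0.407 and 0.709 in TSA. With 9 arrays and 12422 probe sets, values of r this high are the extreme of many comparisons.

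Other genes of the same pathways were taken from lists and averaged over their probe sets. Of 12 measured partners of DNA methylation, none passed in RA and Mbd3 fell in TSA. Mbd3, a subunit of the NuRD complex, which carries histone deacetylases, read 0.863, 0.943 and 1.15 in RA and 0.393, 0.423 and 0.527 in TSA, against 0.998, 1.13 and 0.872 in vehicle. The TSA arrays lay below all others, with log2 changes of -1.08 (-1.53 to -0.63) in TSA and 1.05 (0.61 to 1.5) in RA against TSA, and limma adjusted p of 0.0204 and 0.0194. These calls held in 11 and 12 of 17 other settings. Without vehicle replicates 1 and 2 and TSA replicates 1 and 2 in turn, the limma adjusted p for TSA was 0.0511, 0.0844, 0.0772 and 0.0982. The limma adjusted p for RA against TSA reached 0.0603 and 0.0656 with RA replicate 2 or 3 left out, and 0.0767 and 0.0834 with TSA replicate 1 or 2 left out.

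Uhrf1, which recruits Dnmt1 to newly replicated DNA, read 0.662, 0.552 and 0.536 in RA and 0.574, 0.57 and 0.746 in TSA, against 0.898, 0.992 and 1.11 in vehicle. All treated arrays were below all vehicle arrays, but its log2 changes of -0.73 and -0.63 did not pass, with limma adjusted p of 0.103 and 0.0943. Tet1, an oxidase that starts the removal of methyl groups and is abundant in embryonic stem cells, had log2 changes of -1.13 in RA and -0.97 in TSA, with limma adjusted p of 0.108 and 0.104. Neither therefore counts as changed. The median of the 12 genes was -0.05 in RA and -0.37 in TSA, beside -0.12 and -0.15 over all genes. Dnmt3l was not analysed here.

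Of 8 measured partners of PRC2 and H3K27 demethylases, none passed against vehicle in RA or TSA, and 1, Jarid2, differed between the treatments. Jarid2, which helps to bring PRC2 to its targets in embryonic stem cells, read 0.583, 0.752 and 0.784 in RA and 1.37, 1.34 and 1.39 in TSA, against 0.955, 0.956 and 1.09 in vehicle. The groups did not overlap at all: RA was lowest, vehicle in between and TSA highest. RA against TSA gave a log2 change of -0.92 (-1.32 to -0.52, limma adjusted p = 0.0204), in 11 of 17 other settings past the threshold. Leaving out RA replicate 1 or 2 or TSA replicate 1, 2 or 3 gave limma adjusted p of 0.0768, 0.0569, 0.0747, 0.0808 and 0.0755. Against vehicle it had -0.48 in RA and 0.44 in TSA, with limma adjusted p of 0.257 and 0.193. The core PRC2 subunit Suz12 had -0.41 and -0.39, and the demethylase gene Kdm6a 0.16 and -0.05, none past the test. The median of the 8 genes was -0.23 in RA and -0.01 in TSA, beside -0.12 and -0.15 over all genes.

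Of 12 measured PRC1 partners, none passed in RA, in TSA or between them. The chromodomain gene Cbx7, whose protein reads the H3K27 mark, had the highest values, with 2.59, 1.71 and 1.89 in RA and 1.92, 2.22 and 2.55 in TSA, against 0.686, 0.62 and 1.69 in vehicle. Its log2 changes were 1.13 and 1.25, with limma adjusted p of 0.187 and 0.0845, and vehicle replicate 3 stood near the treated arrays. Cbx2 had -0.16 in RA and -0.13 in TSA, and Ring1, the relative of Rnf2, had -0.13 and 0.31. The median of the 12 was 0.03 in RA and 0.10 in TSA, beside -0.12 and -0.15 over all genes.

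**Figure D4:**
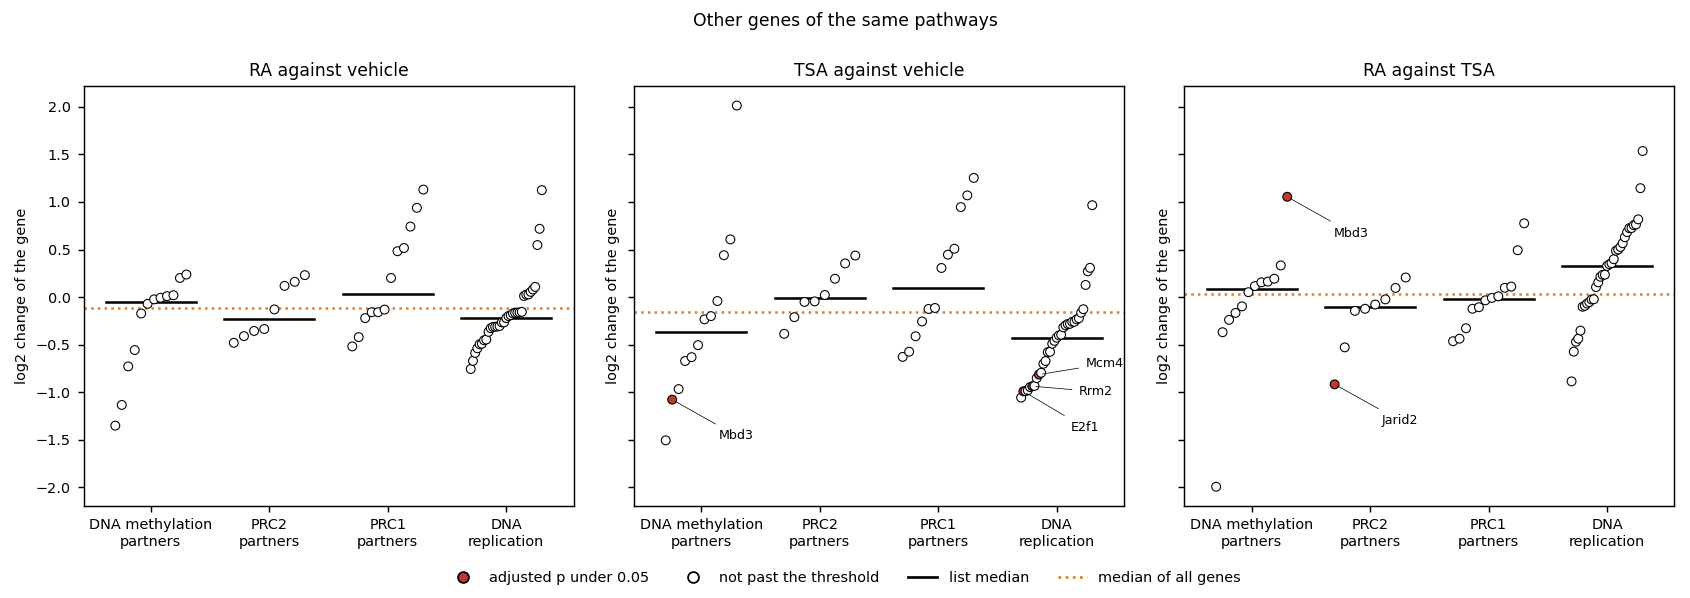
Log2 change (limma, probe sets of a gene averaged) of the measured genes of 4 lists that are not members themselves, in RA against vehicle, TSA against vehicle and RA against TSA, with a point for each gene, a bar at the list median and a dotted line at the median of all 8251 genes. Filled points passed the adjusted threshold of 0.05: Mbd3, Mcm4, Rrm2 and E2f1 in TSA, and Mbd3 and Jarid2 in RA against TSA.

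Because Dnmt1, Uhrf1 and Ezh2 are known to be made in step with cell division, genes of DNA replication were set beside them. Of 33 measured, none passed in RA, and Mcm4 (-0.81), Rrm2 (-0.94) and E2f1 (-0.99) fell in TSA on the log2 scale. The list median was -0.22 in RA and -0.43 in TSA, beside -0.12 and -0.15 over all genes. With 1 array left out in turn, these 3 calls held in 1, 2 and 4 of 9 fits. Pcna, the clamp that Dnmt1 binds at the replication fork, had -0.98 in TSA (limma adjusted p = 0.0647). Dnmt1, averaged over its probe sets in the same way, had 0.19 in TSA (limma adjusted p = 0.674). Its probe sets had -0.09 (101445_at) and 0.47 (161601_i_at) in TSA. The part of replication in the member values was not tested.

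Markers of cell state and of other cells were read from lists in the same way. Of 10 markers of undifferentiated F9 cells, 4 fell in RA, Zfp42 (-1.69), Utf1 (-1.74), Tdgf1 (-2.37) and Foxd3 (-1.99), and 4 fell in TSA, Utf1 (-1.34), Tdgf1 (-1.53), Foxd3 (-3.53) and Gdf3 (-1.28), all as log2 changes. Of 12 endoderm markers, Gata6 (1.93), Lama1 (1.13) and Plat (2.56) rose in RA, and Lama1 (1.11) and Plat (3.6) rose in TSA. The list median was 0.21 in RA, with 9 log2 changes above 0 and 3 below, and -0.10 in TSA, with 5 above and 7 below. Mean log2 values of the 12 endoderm markers were 0.48 to 0.66 on the RA arrays and 0.27 to 0.35 on the TSA arrays. On vehicle replicates 1, 2 and 3 they were -0.42, -0.15 and 0.45, so vehicle replicate 3 lay above the TSA arrays. Of 12 fibroblast and feeder cell markers, none passed in RA, and Col1a1 (2.45) and Thy1 (3.00) rose in TSA. The list median in TSA was 0.07, beside -0.15 over all genes, with 7 log2 changes above 0 and 5 below. Of the 12, 3 lay below the median over all genes. Thy1 read 6.23, 8.26 and 6.68 in TSA, against 1.89, 0.45 and 0.658 in vehicle. Acta2, a smooth muscle actin, read 0.587, 0.432 and 1.04 in TSA, against 0.447, 0.363 and 2.19 in vehicle, and was picked after its values were seen. The mean log2 value of the 12 was -0.31 to 0.0022 on the RA arrays and 0.28 to 0.62 on the TSA arrays, against -0.43, -0.73 and 0.61 on vehicle replicates 1, 2 and 3. Thy1 was high on the TSA arrays and not on vehicle replicate 3, and Acta2 was highest on vehicle replicate 3. Col1a1, Lum, Fbln2 and Pdgfrb were above 1 on vehicle replicate 3 and on all TSA arrays. Col1a2, Col3a1, Postn, Dcn, Pdgfra and Tagln were above 1 on vehicle replicate 3 but not on every TSA array. With 1 array left out in turn, the calls of Zfp42 and Tdgf1 in RA and of Foxd3 and Plat in TSA held in 9 of 9 fits, and the others named here in 1 to 6. The part of such cells in the member values was not tested.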

How the data were processed

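The authors deposited 1 table, whose values are linear ratios for each array. In all 12488 rows the 3 vehicle arrays averaged 1 within 1e-05, so the deposited values are ratios to the vehicle mean. Per the labels, RNA was hybridised by the Affymetrix protocol and the vehicle data were entered into GeneSpring. The sources used here name no signal algorithm and no scaling.

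From these ratios, 66 control probe sets were left out, and limma 3.58.1 (R 4.3.3) was run on log2(ratio + 0.05) of 12422 probe sets over 9 arrays, with 6 residual degrees of freedom, no variance trend and no filter on low values, and again on the probe sets averaged for 8251 genes. Fold changes on this scale understate changes of low values. The number of arrays limits the precision. Platform symbols were updated through Entrez IDs with RefSeq (GRCm38.p6), and promoter windows came from the same source. The procedure was tested on simulated data for RA against vehicle. It recovered 16% of log2 changes of 1 and 18.25% of those of -1. Of log2 changes of 2 and -2 it recovered 65% and 64%, and 6.01% of its calls were false. A count of 0 members past the threshold in RA therefore leaves room for log2 changes near 1 or -1. This applies to members whose own interval reaches that far. The simulation covered 12422 probe sets and not the members alone. Median SDs of log2 values were 0.196 in RA and 0.262 in vehicle for the members, beside 0.311 and 0.413 for all probe sets. Recovery in TSA was not simulated. The members and lists were chosen with earlier results of these data known. All member probe sets were named, with the listed genes past the threshold (up to 6 a list), some fixed partners (Dnmt3l and Kdm6b had no probe set with 1 symbol), and the 3 genes of nearest profile to the 3 members of smallest F test p. Alternatives were other pseudocounts (0.01 and 0.1), quantile normalisation, median centring, leaving out the lowest 30% by mean, 6 arrays only, a variance trend, array weights, a replicate block, gene averages, leaving out each array, and leaving out the 18S-rich vehicle replicate 3 and RA replicate 3. For listed genes they were run after seeing the data.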

Additional observations from a re-analysis of the deposited data

Results flagged for a closer look

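Genes of the lists were marked here when limma's test of RA against TSA passed with Benjamini-Hochberg adjustment. No member probe set did so. Among pathway partners, Mbd3 was higher in RA than in TSA by a log2 change of 1.05 and Jarid2 lower by a log2 change of -0.92. Among the markers, Gata6 (2.62), Col4a1 (1.59) and Foxd3 (1.55) were higher in RA, and Zfp42 (-1.55), Col1a1 (-2.88) and Thy1 (-4.35) were lower. Of 17 other settings, the calls of Gata6, Zfp42 and Col1a1 held in 17 each, Thy1 in 16, Mbd3 in 12, Jarid2 and Col4a1 in 11 each and Foxd3 in 6. With 1 array left out in turn, they held in 9 of 9 fits for Gata6, Zfp42, Col1a1 and Thy1, in 5 for Mbd3, in 4 for Jarid2 and Col4a1 and in 2 for Foxd3. Groups of 3 arrays were too small to look for single outlying samples.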

How the results depend on the processing

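The count of 0 member probe sets past the threshold held in all 3 comparisons under both other pseudocounts, quantile normalisation, leaving out the lowest 30% of probe sets (which kept 7 of the 12), only the 6 arrays compared, a variance trend, gene averages, and leaving out the 18S-rich arrays. It was 0 to 0 with each array left out in turn. Centring on array medians gave 1 in TSA (Bmi1), and moved the median of all probe sets to 0.035 in RA and 0.029 in TSA. Array weights gave 6 in RA, 6 in TSA and 1 in RA against TSA, but their estimation did not converge, with a weight of 21.4 for vehicle replicate 2 and at most 1.68 for the others, and 2196, 4494 and 943 of all probe sets passed. Over all probe sets, 169, 432 and 486 passed in RA, in TSA and in RA against TSA, against 87, 108 and 152 after quantile normalisation, and 61 in RA and 168 in TSA with only the 6 arrays compared. A variance trend gave 111 in RA, and leaving out the 18S-rich arrays gave 98 in RA. With 1 array left out they were 54 to 209, 107 to 494 and 167 to 624.

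With a replicate block, 0 members passed in each comparison, and 141, 438 and 455 of all probe sets did. Same-numbered arrays correlated at -0.032 to 0.29 in their deviations from the group means, against -0.30 to 0.17 for arrays of different numbers. The replicate 3 arrays correlated at 0.29 (vehicle and RA), 0.24 (vehicle and TSA) and 0.19 (RA and TSA). Not every array correlated best with its own number. Whether same-numbered arrays share more than a number was not tested.

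No member change passed in the main fit, so the signs that turned were necessarily those of changes that had not passed. Under quantile normalisation the log2 change was 0.081 in RA and 0.048 in TSA for Dnmt1 101445_at, 0.0092 and 0.14 for Rnf2 93164_at, 0.12 in RA for Rnf2 95912_at and 0.010 in TSA for Eed. Centring gave 0.14 in RA and 0.11 in TSA for Dnmt1 101445_at, 0.11 in RA for Rnf2 95912_at, 0.075 in TSA for Eed and 0.16 in TSA for Rnf2 93164_at. Array weights gave 1.48 in RA for Dnmt3a 161170_r_at, 0.027 in RA for Rnf2 95912_at and 0.17 in TSA for Rnf2 93164_at. Without the 18S-rich arrays the RA change was -0.057 for Dnmt3a 100479_at, 1.36 for Dnmt3a 161170_r_at and 0.26 for Rnf2 95912_at. RA against TSA was then -0.0011 for Dnmt1 101445_at, 0.058 for Dnmt1 161601_i_at, 0.013 for Phc1, 0.076 for Rnf2 93164_at and 0.058 for Rnf2 97506_at. With 1 array left out, RA changes ran from -0.094 to 0.056 for Dnmt1 101445_at, -1.45 to 0.86 for Dnmt3a 161170_r_at, -0.33 to 0.034 for Rnf2 93164_at and -0.24 to 0.16 for Rnf2 95912_at. TSA changes ran from -0.084 to 1.93 for Dnmt3a 161170_r_at, -0.33 to 0.024 for Eed and -0.26 to 0.16 for Rnf2 93164_at. RA against TSA ran from -0.0011 to 0.15 for Dnmt1 101445_at, -0.59 to 0.058 for Dnmt1 161601_i_at, -0.18 to 0.15 for Phc1, -0.34 to 0.083 for Rnf2 93164_at and -0.22 to 0.11 for Rnf2 97506_at. The cause was not tested.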
